A study of Homo sapiens with 6 samples.

Results

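The nuclear genes for the proteins of the mitochondrial ribosome were examined in COV434 cells transfected with a control plasmid or with a BRG1 plasmid. Members were all genes of the deposited table whose symbol is MRPL or MRPS, a number and at most 1 letter. The rule found 77 of 19899 genes, 48 with an MRPL symbol (large subunit) and 29 with an MRPS symbol (small subunit). All 77 had counts and were tested, and the rule uses no measured value.

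COV434 is an established ovarian cancer line that the study treats as a line of SCCOHT, a rare hypercalcemic carcinoma of small cells in the ovary whose cells lack the SWI/SNF ATPase BRG1, the product of SMARCA4. The Control group (n = 3) received pCDNA3-neo and the BRG1 group (n = 3) PBJ5-BRG1, in both cases with pBABE-puro, which carries puromycin resistance. Selection with 2 to 3 µg/ml of puromycin began at 24 hours in both groups, and pellets were collected after 3 days of it. The labels call the samples biological replicates and number them 1 to 3 in each group. The model is 1 line with transiently introduced plasmids, and its SMARCA4 counts in BRG1 samples include plasmid transcripts.

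Poly(A) libraries without strand held 29699741 to 63613710 estimated counts. SMARCA4 stood at 1439 to 1676 normalised counts in Control and at 78589 to 108650 in BRG1, and SMARCA2, the gene of the alternative ATPase, at 3.79 to 35.7 in all samples. Of 6 granulosa cell markers, FOXL2 and FSHR were at 3 counts or fewer in every library. AMH stood at 227 to 455 normalised counts, INHA at 35.7 to 47.5 and STAR at 8.21 or fewer, and none of them was called. CYP19A1, which makes estrogen, rose by 3.76 on the log2 scale (DESeq2, adjusted p = 8.7e-20). Of 4 epithelial markers KRT8 and KRT18 rose, CDH1 (3.65 to 57.5 normalised counts) was not called and EPCAM was at 3 counts or fewer. Of 3 endothelial markers VWF and CDH5 rose and PECAM1 (at most 37.3) was not called. None of 4 leukocyte or 4 fibroblast markers was called, and the leukocyte marker PTPRC stood at 336 to 722 normalised counts. Whether cells of another type take part in the differences among the members was not tested. In bulk RNA, fewer cells of a type and less RNA per cell cannot be told apart.

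The mitochondrial ribosome translates the few messenger RNAs that mitochondrial DNA encodes, all of them for subunits of the respiratory chain and ATP synthase. Its RNAs come from mitochondrial DNA, whereas all its proteins are encoded in the nucleus, made on cytosolic ribosomes and imported. Some of the proteins descend from those of the bacterial ribosome and others have been added in mitochondria. Symbol and place do not always match. The proteins of MRPS18A and MRPS30 sit in the large subunit, and that of MRPS36 is now known as a component of the 2-oxoglutarate dehydrogenase complex.

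Expression of the mitochondrial ribosomal protein genes differed little between BRG1 and Control. MRPS27, a pentatricopeptide repeat protein of the small subunit that binds RNA, was the 1 member of 77 that fell (DESeq2, adjusted p under 0.05), and no member rose. Among all tested genes 1.84% were called lower and 11.0% higher. With the replicate number as a block, 3 members fell (MRPS27, MRPL45 and MRPL11) and none rose, against 6.62% lower and 13.4% higher of all tested genes. Of the tested genes with mean counts in the members' range, 2.06% were called lower and 6.96% higher without the block, and 8.84% lower and 10.5% higher with it. The quasi-likelihood test of edgeR called 1 member lower (1.02% of tested genes) and 0 higher (9.57%). With the block it called 3 lower, MRPS27, MRPL45 and MRPL41 (5.68%), and 0 higher (13.7%). Before adjustment, 7 members were lower and 1 higher at a DESeq2 p under 0.05. At that limit 884 of all 15991 tested genes were lower and 2420 higher. Of the 8609 tested genes in the members' range, 590 were lower and 837 higher.

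The promoters of the 3 members called lower, and of MRPL33, which had the highest log2 fold change, are shown to place these genes in the genome. Each run ends at the base before the RefSeq start (GRCh38.p14). Capitals mark letters of 7 motifs searched on both strands. These were CCGGAAG (core of the ETS factors such as GABPA), the core of NRF1, AAGATGGC (YY1), GGGCGG (the GC box of SP1), CCAAT (the CCAAT box), CACGTG (the E-box of MYC) and TGANTCA (AP-1). No match shares bases with another in these 4 runs. The run of MRPS27 stops at 132 bases because the first exon of PTCD2, read in the other direction, starts there.
MRPS27, chr5:72320241-72320372, minus strand: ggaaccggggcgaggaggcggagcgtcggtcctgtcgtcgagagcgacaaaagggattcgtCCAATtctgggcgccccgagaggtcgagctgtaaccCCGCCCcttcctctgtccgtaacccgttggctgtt
MRPL45, chr17:38296918-38297167, plus strand: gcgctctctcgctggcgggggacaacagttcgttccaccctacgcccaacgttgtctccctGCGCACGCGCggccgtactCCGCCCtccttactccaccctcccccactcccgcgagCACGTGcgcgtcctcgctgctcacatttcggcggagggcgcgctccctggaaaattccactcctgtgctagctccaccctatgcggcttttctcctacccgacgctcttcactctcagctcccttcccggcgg
MRPL11, chr11:66438849-66439098, minus strand: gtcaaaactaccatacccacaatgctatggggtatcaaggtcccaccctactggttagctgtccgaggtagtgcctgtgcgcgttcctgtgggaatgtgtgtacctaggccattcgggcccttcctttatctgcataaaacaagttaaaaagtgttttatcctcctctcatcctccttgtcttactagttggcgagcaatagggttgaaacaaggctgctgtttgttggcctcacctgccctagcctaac
MRPL33, chr2:27771469-27771718, plus strand: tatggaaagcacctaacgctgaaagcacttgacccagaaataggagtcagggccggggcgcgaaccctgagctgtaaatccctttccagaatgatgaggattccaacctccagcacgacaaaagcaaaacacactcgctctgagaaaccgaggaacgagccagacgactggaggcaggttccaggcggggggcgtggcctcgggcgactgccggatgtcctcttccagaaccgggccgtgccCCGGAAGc

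The promoter of MRPS27 held a CCAAT box and a GC box, that of MRPL45 an NRF1 core, a GC box and an E-box, and that of MRPL33 an ETS core at its end. None of the 7 sets of letters was in the window of MRPL11. RefSeq windows were found for 69 of the 77 members, 85 windows of 250 bases in all. The ETS core was in 30.6% of the members' windows against 8.52% of 35116 windows of all genes, the YY1 letters in 8.24% against 1.36% and the NRF1 core in 11.8% against 5.07%. GC boxes (55.3% against 42.6%), CCAAT boxes (30.6% against 32.0%) and E-boxes (10.6% against 6.34%) differed less. The AP-1 letters were in 1 window of the members, that of MRPS35 (1.18% against 6.57%). A match says only that the letters are present.

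MRPS27 lies on chromosome 5 (72214953 to 72321717, minus strand, GENCODE 44 on hg38) and has no named pseudogene. It had 11603, 10233 and 11020 normalised counts in Control samples 1 to 3. In BRG1 samples 1 to 3 it had 7793, 6672 and 8255. Every BRG1 sample was below every Control sample. Means were 10952 ± 688 for Control and 7574 ± 814 for BRG1 (± SD, n = 3 each), a log2 fold change of -0.53 ± 0.14 (SE) with a 95% interval of -0.82 to -0.25 and an adjusted p of 0.0027 by DESeq2. This is a change of -30.9%. Within replicate numbers 1 to 3 the log2 ratio was -0.57, -0.62 and -0.42. The adjusted p was 3.3e-07 with the block and 0.023 by edgeR, and without Control replicate 1 the DESeq2 value was 0.057, above the threshold. PTCD2, a pentatricopeptide repeat protein of mitochondria whose start lies 133 bases from that of MRPS27 on the other strand, had a log2 fold change of -0.06 (adjusted p = 0.91).

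MRPL45 encodes a mitochondria-specific protein at the exit of the polypeptide tunnel, where new chains meet the inner membrane. It had 3343, 2803 and 2964 normalised counts in Control samples 1 to 3 and 2429, 2127 and 2415 in BRG1 samples 1 to 3. The groups did not overlap. Its log2 fold change was -0.39 ± 0.14 (SE), with an adjusted p of 0.056 by DESeq2, 0.0028 with the block and 0.017 by edgeR with the block. Annotation lists 2 pseudogenes of MRPL45 that could share its reads.

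MRPL11 is the counterpart of bacterial L11, at the base of the stalk that engages the GTPase translation factors. Its normalised counts were 2953, 3329 and 3173 in Control samples 1 to 3 and 2374, 2505 and 2833 in BRG1 samples 1 to 3, again without overlap. The log2 fold change was -0.29 ± 0.14 (SE), with an adjusted p of 0.19 by DESeq2, 0.041 with the block and 0.052 by edgeR with the block. MRPL41, a mitochondria-specific protein of the large subunit, had 3635, 3646 and 3894 normalised counts in Control and 3093, 3184 and 2991 in BRG1. Its log2 fold change was -0.27 ± 0.11 (SE), with an adjusted p of 0.11 by DESeq2, 0.0505 with the block and 0.049 by edgeR with the block. Corrected for GC content and transcript length, the log2 fold change was -0.22 for MRPL11, whose blocked call was lost (DESeq2 adjusted p = 0.13 with the block), and -0.08 for MRPL41 (0.70 with the block). MRPL45 kept its blocked call under this correction (-0.29 without the block, adjusted p = 0.028 with it). MRPS27, MRPL45, MRPL11 and MRPL41 were each lower in BRG1 at all 3 replicate numbers, as the plots of values by sample show.

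**Figure D1:**
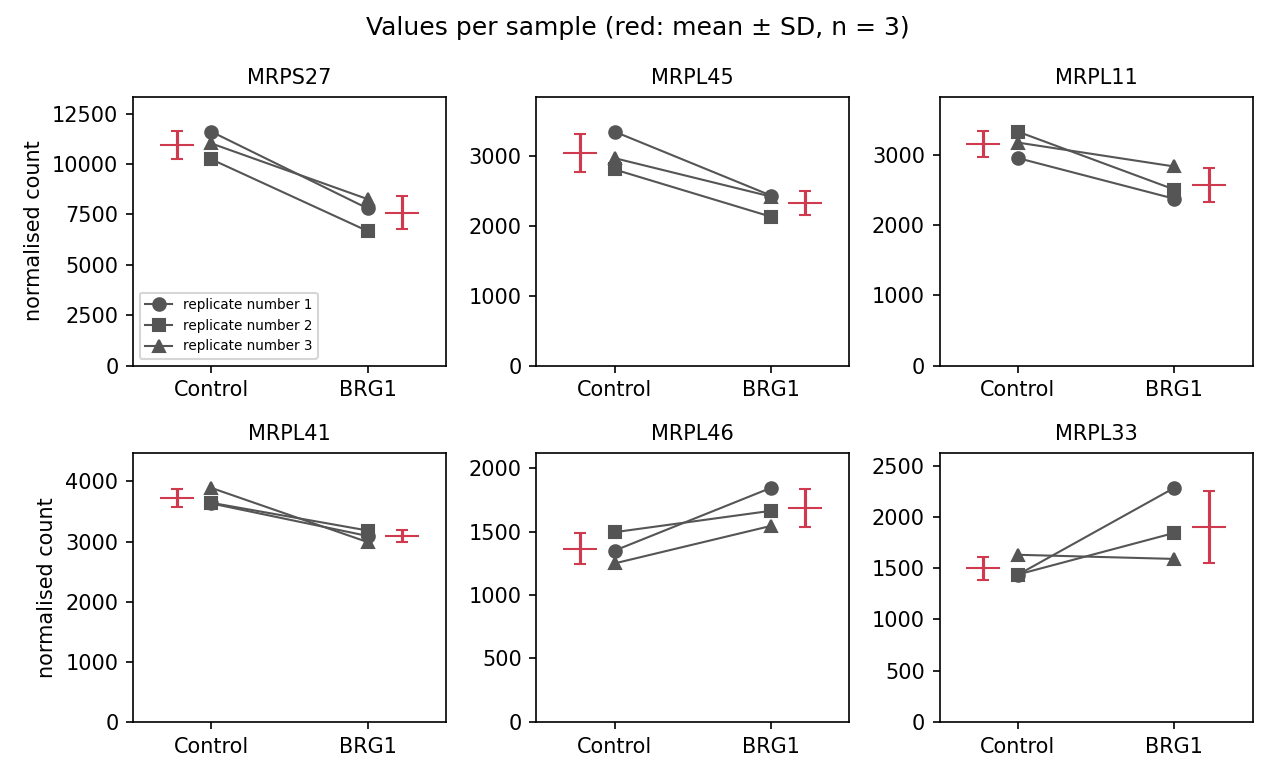
Normalised counts of 6 members per sample, Control on the left and BRG1 on the right of each panel, with lines joining samples of the same replicate number and the mean ± SD of each group in red (n = 3). MRPS27, MRPL45, MRPL11 and MRPL41 were lower in BRG1 at every number, MRPL46 was higher at every number, and MRPL33 was higher at 2 of 3 numbers.

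MRPL46, MRPL33 and MRPL4 had the highest log2 fold changes, and none was called by DESeq2 or edgeR with or without the block. MRPL46, a protein of the central protuberance, had 1350, 1495 and 1249 normalised counts in Control and 1845, 1664 and 1545 in BRG1. Its groups did not overlap, and its log2 fold change was 0.31 ± 0.15 (SE, DESeq2 adjusted p = 0.23). MRPL33, counterpart of a small zinc-binding protein of the bacterial large subunit, had 1436, 1439 and 1632 normalised counts in Control and 2285, 1845 and 1591 in BRG1. BRG1 sample 3 lay inside the Control range, and the log2 fold change was 0.35 ± 0.19 (SE, adjusted p = 0.29). For MRPL33, 21.1% of exonic bases are shared with BABAM2, a gene on the same strand. Other annotated genes also cover 11.3% of the exonic bases of MRPL46, on the same strand, and 21.3% of those of MRPL4, on the other strand. MRPL4, whose protein lines the tunnel, had 2195, 2474 and 2516 normalised counts in Control and 2939, 2640 and 2872 in BRG1. Its groups did not overlap either, with a log2 fold change of 0.23 ± 0.13 (SE, adjusted p = 0.33). When counts were corrected for GC content and transcript length, these 3 genes passed the threshold. Their log2 fold changes were then 0.44 (MRPL46, DESeq2 adjusted p = 0.030), 0.58 (MRPL33, 0.026) and 0.32 (MRPL4, 0.047). MRPS27 was the 1 member called lower with the correction (adjusted p = 0.0094). Under the same correction 1813 of all 15991 tested genes were called higher and 198 lower. Of the 8609 tested genes with mean counts in the members' range, 634 were called higher and 116 lower.

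Across the set, 59 of 77 log2 fold changes were below 0, 38 of 48 for the large and 21 of 29 for the small subunit. Of all tested genes 51.7% were below 0, and of those with mean counts in the members' range 60.5%. With the GC and length correction 38 of 77 members were below 0, beside 4682 of the 8609 genes in range. With total-count factors 49 members and 4431 genes in range were below 0. The median log2 fold change was -0.08 for MRPL and -0.11 for MRPS. It was -0.01 for all 15991 tested genes and -0.06 for the 8609 tested genes with mean counts in the members' range. The GC and length correction moved the MRPL median to 0.04 and the MRPS median to -0.01. The same correction moved the median of all tested genes to 0.02 and that of the genes in range to -0.02. The members' values ran from -0.53 to 0.35, with MRPS27 the single gene beyond 0.5 in either direction. The 95% interval lay within a 1.5-fold change for 68 of 77 members, and for 74 with the block. Of the 8609 genes in range the interval lay within it for 5177, and for 6641 with the block. The median standard error was 0.14 for the members and 0.24 for all tested genes.

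**Figure D2:**
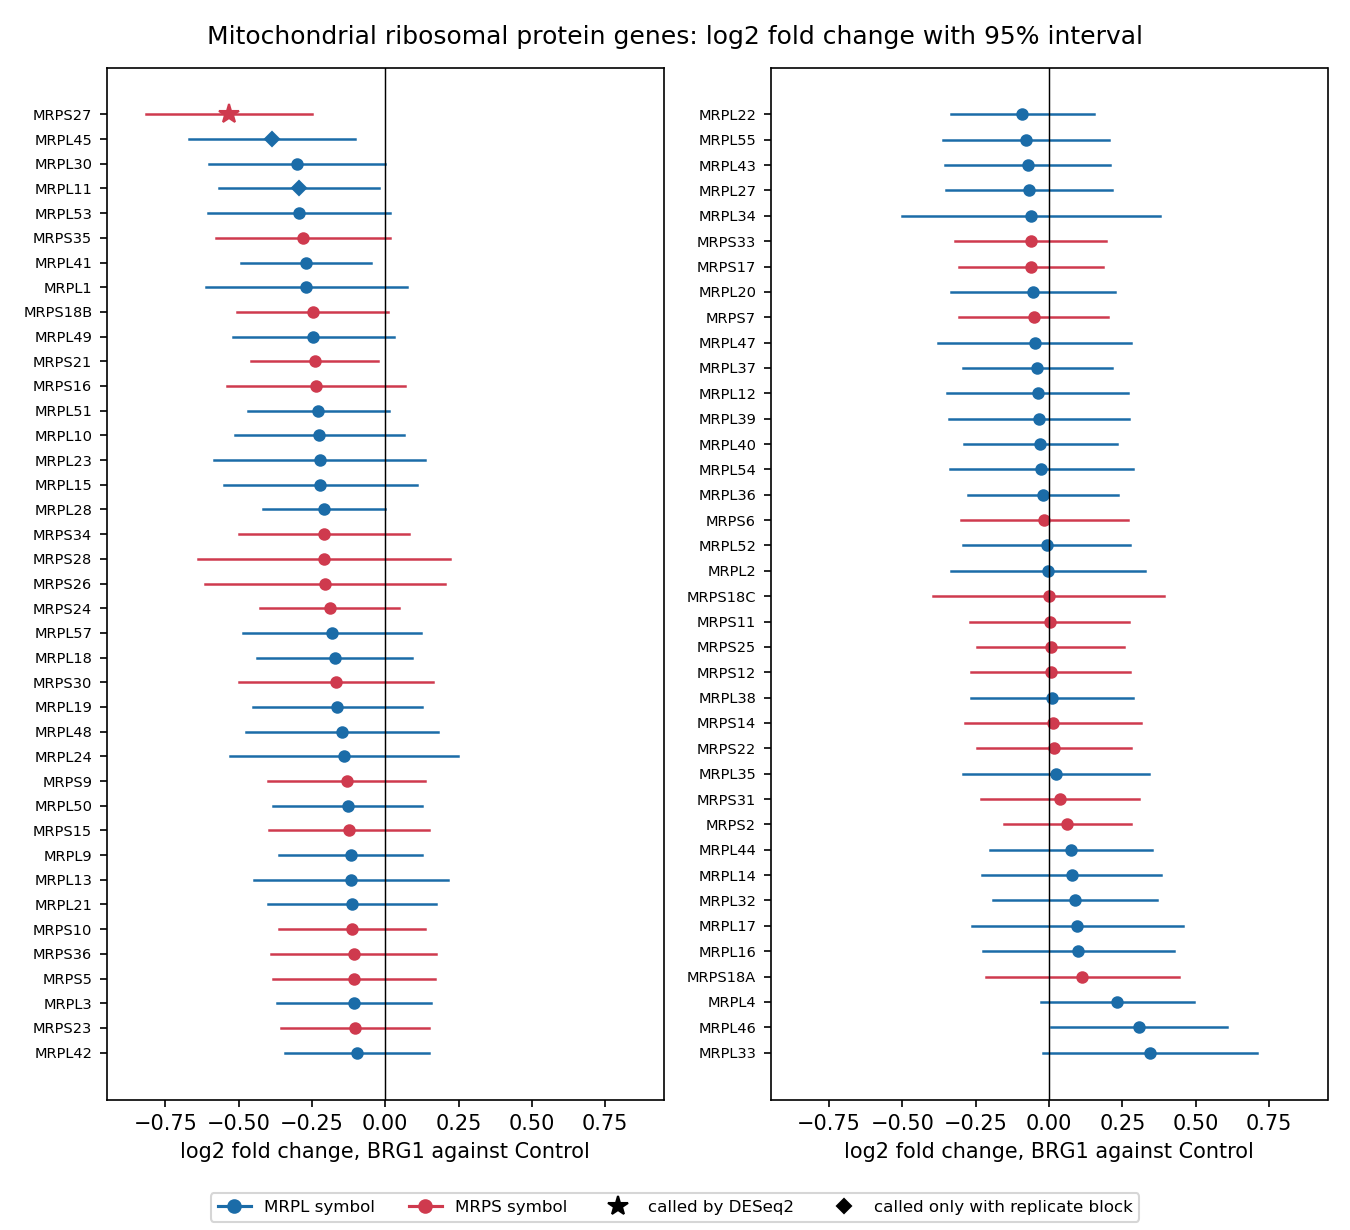
Log2 fold change of BRG1 against Control for all 77 members, ordered from lowest (top left) to highest (bottom right), with 95% intervals from DESeq2. MRPL genes are blue and MRPS genes red, the star marks MRPS27 and the diamonds mark MRPL45 and MRPL11, called with the replicate block alone. Below 0 lie 59 of the 77 points (38 with the GC and length correction, which is not drawn). Of tested genes with mean counts in the members' range, 60.5% were below 0 without the correction.

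By replicate number, the median log2 ratio of BRG1 to Control was -0.07, -0.17 and -0.04 for MRPL and -0.06, -0.13 and -0.08 for MRPS. Genes of like mean count had medians of -0.06, -0.04 and -0.05. The members were thus farthest below those genes at number 2, where 63 of 77 were below 0, against 45 at number 1 and 50 at number 3. Of the 8609 genes of like mean count, 4986, 4744 and 5230 were below 0 at numbers 1 to 3. A total of 32 members were lower in BRG1 at all 3 numbers, beside 27.4% of all tested genes and 35.1% of those in the members' range. Higher at all 3 numbers were 5 members (MRPL4, MRPL16, MRPL46, MRPS2 and MRPS18A), beside 27.3% and 21.1%. In 16 members every BRG1 sample was below every Control sample (9.92% of all tested genes, 12.5% in range), and in 2, MRPL4 and MRPL46, every BRG1 sample was above (16.7% and 10.4%).

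**Figure D3:**
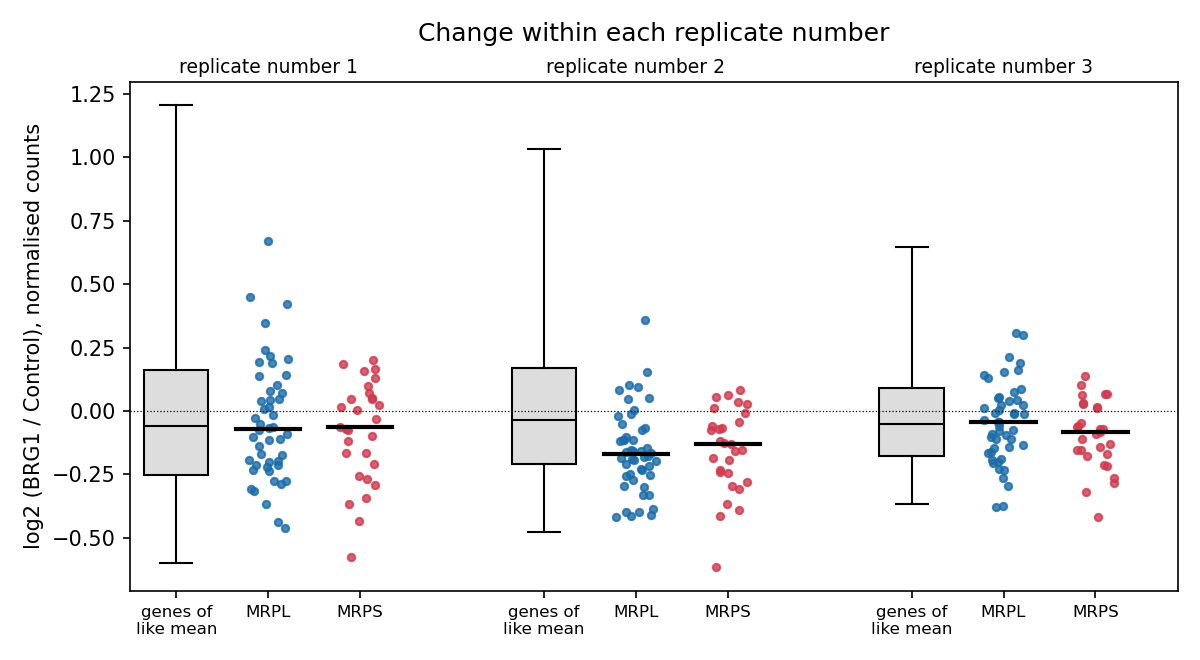
Log2 ratio of BRG1 to Control in normalised counts within replicate numbers 1, 2 and 3. Gray boxes show 8609 tested genes in the members' range of mean counts (box, quartiles; line, median; whiskers, 5th to 95th percentile), points are single MRPL (blue) and MRPS (red) genes, and bars are their medians, which lie below 0 in each number.

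The 2 subunits were compared through their summed normalised counts, in which long transcripts weigh more than short ones. The ratio of the MRPL sum to the MRPS sum was 1.46, 1.51 and 1.45 in Control samples 1 to 3. It was 1.55, 1.55 and 1.53 in BRG1 samples 1 to 3, above every Control sample. Without MRPS27, which alone gave 12.3 to 14.4% of the MRPS counts in Control and 9.29 to 10.8% in BRG1, the ratio was 1.71, 1.72 and 1.67 in Control and 1.74, 1.71 and 1.72 in BRG1. These ranges overlap, so the separation of the groups in the ratio of the sums depended on that 1 gene. With genes counted by the subunit in which the protein sits, the ratio was 1.62, 1.67 and 1.60 in Control and 1.72, 1.76 and 1.68 in BRG1. All members together took 0.428 to 0.442% of counts in Control and 0.403, 0.405 and 0.435% in BRG1 samples 1 to 3.

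Within the large subunit, all 4 genes of the stalk and its base had log2 fold changes below 0 (MRPL10, MRPL11, MRPL12 and MRPL53), with a median of -0.26. With the GC and length correction, and also with total-count factors, 3 of the 4 remained below 0, and the correction moved the median to -0.12. MRPL10, which anchors the stalk, had -0.23 (DESeq2 adjusted p = 0.43). MRPL53 had -0.29 (0.29), or -0.07 with the correction, and 99.4% of its exonic bases are shared with CCDC142 or another annotated gene, and reads of unstranded libraries cannot be told apart there. MRPL12, the mobile arm of the stalk, had -0.04, and 69.5% of its exonic bases are covered by another annotated gene. MRPL1, the protein of the L1 stalk near the exit site of transfer RNA, had -0.27 (adjusted p = 0.43), or -0.12 with the correction.

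The 8 genes of the tunnel exit had a median log2 fold change of -0.07, from -0.39 for MRPL45 to 0.10 for MRPL17, and the correction brought that median to 0.04. The 7 genes of the central protuberance had a median of -0.03, or 0.11 with the correction, from -0.17 for MRPL18 to 0.31 for MRPL46. The 44 members with a bacterial counterpart and the 32 specific to mitochondria had medians of -0.08 and -0.10, or 0.01 and -0.01 with the correction. MRPS18A and MRPS18B were counted among the 32, although the MRPS18 paralogs descend from 1 bacterial protein. The 1 gene called without the block (MRPS27) and MRPL45 belong to the mitochondria-specific members. MRPL11, which like MRPL45 was called by DESeq2 with the block alone, has a bacterial counterpart.

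Of the other members named by p, MRPL30 had a log2 fold change of -0.30, MRPS35 of -0.28, MRPL49 of -0.25, MRPS21 of -0.24, MRPS16 of -0.24, MRPL51 of -0.23, MRPL28 of -0.21, MRPS34 of -0.21 and MRPS24 of -0.19. Their adjusted p ran from 0.17 (MRPS21) to 0.49 (MRPS34) by DESeq2, and from 0.060 (MRPS35) to 0.20 (MRPS24) with the block. The GC and length correction moved 5 of these by over 1.5 times, MRPS24 to -0.01, MRPL51 to -0.07, MRPS34 to -0.10, MRPS21 to -0.11 and MRPS35 to -0.18. MRPL28, MRPL30, MRPS16, MRPS21 and MRPS24 have bacterial counterparts, whereas MRPL49, MRPL51, MRPS34 and MRPS35 were added in mitochondria. The Control and BRG1 values of MRPL28, MRPL30, MRPL49, MRPL51, MRPS21 and MRPS24 did not overlap, and those of MRPS16, MRPS34 and MRPS35 did. MRPS21 has 8 named pseudogenes, MRPL51 shares 27.6% of its exonic bases with NCAPD2 on the other strand, and MRPS24 shares 23.2% with a readthrough transcript.

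The MRPS18 paralogs descend from 1 bacterial protein and take 3 places in the ribosome, MRPS18A in the large subunit and MRPS18B and MRPS18C in the small. MRPS18B had 3279, 3260 and 2891 normalised counts in Control and 2679, 2485 and 2778 in BRG1, without overlap, with -0.25 as log2 fold change (DESeq2 adjusted p = 0.27), or -0.16 corrected for GC and length. MRPS18A had 1269, 1537 and 1202 in Control and 1444, 1565 and 1324 in BRG1, with overlap, at 0.11 (0.82), or 0.22 corrected. MRPS18C was at 0.00 (1.00), with its sign set by the processing. The log2 ratio of MRPS18A to MRPS18B had means of -1.24 ± 0.14 for Control and -0.88 ± 0.20 for BRG1 (± SD, n = 3 each). The difference of 0.36 had a two-sided exact permutation p of 0.1, the smallest that 3 against 3 unpaired samples allow. The permutation used all 20 arrangements of the samples and did not keep the pairing by replicate number. For MRPS18C to MRPS18B the difference was 0.23 (exact permutation p = 0.4), and for MRPS18A to MRPS18C 0.13 (exact permutation p = 0.4). Exons of MRPS18A are covered to 50.9% by RSPH9 on the other strand and those of MRPS18C to 40.2% by ABRAXAS1. MRPS30 had a log2 fold change of -0.17 (adjusted p = 0.70), or -0.08 corrected, and MRPS36 one of -0.11 (0.80), or 0.03 with the GC and length correction.

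MRPL46 and MRPS11 form a pair of members on chromosome 15 whose starts lie 320 bases apart on opposite strands. MRPS11 had 2051, 2090 and 2254 normalised counts in Control and 2356, 2004 and 2045 in BRG1, and its log2 fold change was 0.00 (DESeq2 adjusted p = 1.00), beside 0.31 for MRPL46. The log2 ratio of MRPL46 to MRPS11 had means of -0.65 ± 0.19 for Control and -0.34 ± 0.07 for BRG1 (± SD, n = 3 each). The difference of 0.30 had a two-sided exact permutation p of 0.1, the smallest possible without the pairing by number. It was above 0 at all 3 numbers (0.25, 0.21 and 0.45). In all, 27 members start within 1000 bases of another protein-coding gene on the opposite strand, and 24 of these neighbors were in the table. Of these 24, 1 was called lower, FAU, the neighbor of MRPL49, which encodes a ubiquitin-like protein fused to a cytosolic ribosomal protein (-0.39, DESeq2 adjusted p = 0.037). With the block, NDUFB5 beside MRPL47 (-0.30, adjusted p = 0.019) and NCAPD2 beside MRPL51 (-0.30, 0.046) were lower too. Of all tested genes 1.84% were called lower without the block and 6.62% with it. Member and neighbor had log2 fold changes of the same sign in 13 of 24 cases, which were not compared with other gene pairs. MRPL46 and MRPS11 enter these cases from both sides, and the sign of MRPS11 turned with the block (0.0023 without it, -0.00013 with it).

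The 6 proteins of the mitochondrial ribosome with other symbols had a median log2 fold change of -0.05 (0.04 with the GC and length correction), and none was called without the block. DAP3, a GTP-binding protein of the small subunit, had 6106, 6981 and 6239 normalised counts in Control and 5299, 5066 and 5088 in BRG1. Its groups did not overlap, and its log2 fold change was -0.32 ± 0.12 (SE), with a DESeq2 adjusted p of 0.060 and of 0.013 with the block.

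Among 24 genes for assembly and RNA modification, TFB1M fell by 0.43 on the log2 scale (DESeq2 adjusted p = 0.019, but 0.11 by edgeR). TFB1M dimethylates the RNA of the small subunit, in which MRPS27 sits. Its normalised counts were 804, 868 and 784 in Control and 590, 612 and 624 in BRG1, without overlap. With the block, YBEY, an RNA endonuclease, also fell (-0.50, adjusted p = 0.0099) and MALSU1, which keeps the unfinished large subunit from joining the small, rose (0.39, 0.026). Of all tested genes 1.84% were called lower and 11.0% higher without the block, and 6.62% lower and 13.4% higher with it. The calls without the block were 0 of 16 translation factors, 0 of 17 mitochondrial tRNA synthetases, 0 of 12 genes of mitochondrial DNA transcription and upkeep and 0 of 10 regulators of biogenesis. At an unadjusted DESeq2 p under 0.05 these lists held 2, 1, 1 and 2 genes, and edgeR called 0 in each.

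With the block, DESeq2 called MRRF, the ribosome recycling factor (-0.32, adjusted p = 0.034), and LRPPRC, which stabilizes mitochondrial messenger RNAs (-0.26, 0.035), lower among the translation factors. Among the synthetases IARS2 was lower (-0.32, 0.0036) and WARS2 (0.45, 0.032) and LARS2 (0.29, 0.049) were higher. Of the regulators, PPARGC1A, a coactivator of mitochondrial biogenesis, was lower (-0.49, 0.042) and MYC higher (0.28, 0.013). Of these 7 genes, edgeR with the block did not call LRPPRC, LARS2 and MYC, at adjusted p of 0.054 to 0.061. Of all tested genes DESeq2 with the block called 6.62% lower and 13.4% higher. Of those in the members' range it called 8.84% lower and 10.5% higher. With the GC and length correction and no block, DESeq2 called 0 genes in each of these lists. NRF1 (log2 fold change -0.13), GABPA (-0.26) and YY1 (-0.11) were not called with or without the block.

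The messenger RNAs that the mitochondrial ribosome translates had lower log2 fold changes than most genes of its proteins, a difference that was not tested. Of 13 encoded by mitochondrial DNA, 6 fell and 0 rose without the block by DESeq2, 6 by edgeR and 10 with the block by DESeq2, at a median log2 fold change of -0.44. MT-ND3, a subunit of complex I, had 50612, 48421 and 53309 normalised counts in Control and 29887, 27549 and 32581 in BRG1 and fell by 0.76 on the log2 scale (DESeq2 adjusted p = 8.0e-08). MT-CO3 of complex IV fell by 0.72 and MT-ATP6 of ATP synthase by 0.64, whereas MT-ND1 (-0.10, adjusted p = 0.88) and MT-ND2 (-0.12, 0.77) were not called. With the GC and length correction 4 of the 13 were called lower, at a median of -0.27, beside 198 of all 15991 tested genes. Counts of these transcripts were 5.18 to 6.00% of the library in Control and 4.13 to 4.61% in BRG1.

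The proteins of the cytosolic ribosome provide the nearest comparison. Of 76 genes for them, 48 fell and 0 rose by DESeq2, 40 by edgeR and 66 with the block by DESeq2. Their median log2 fold change was -0.45, and all 76 values were below 0. RPL5 fell by 0.84, RPL7 by 0.82 and RPL6 by 0.72 on the log2 scale. With the GC and length correction 31 of 76 were called lower, at a median of -0.28 beside 0.04 for MRPL and -0.01 for MRPS. Under that correction 198 of all 15991 tested genes were called lower, and the median of all tested genes was 0.02. Cytosolic ribosomal protein genes had mean counts of 12715 to 150480 and mitochondrial ones of 500.1 to 9263, so the lists were measured at different depths. The difference between the 2 lists was not tested.

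**Figure D4:**
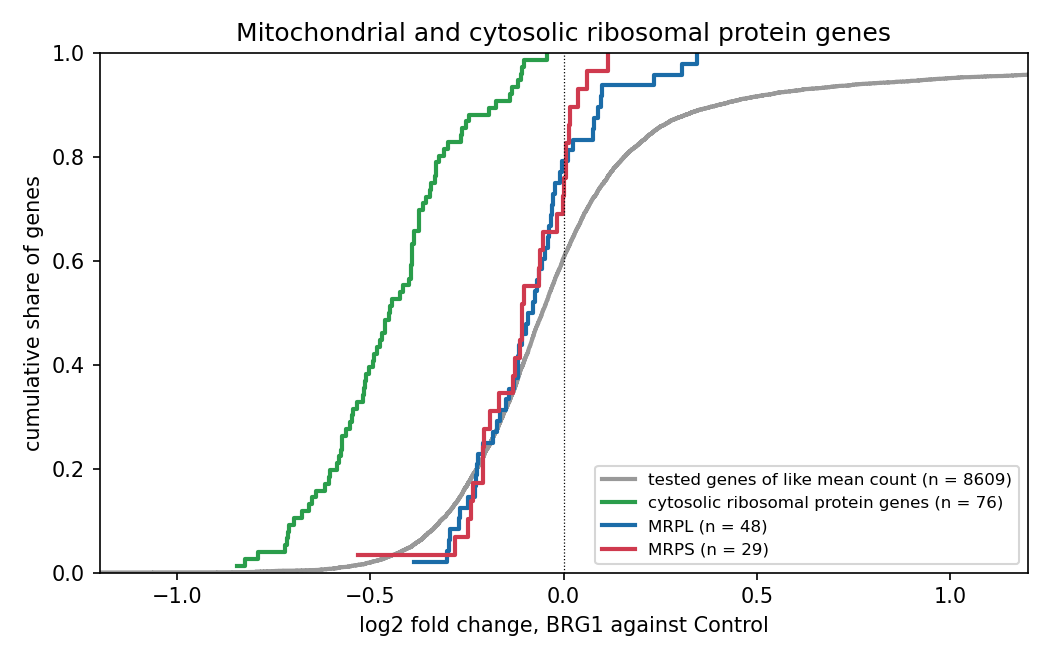
Cumulative share of genes by log2 fold change of BRG1 against Control for MRPL (blue, n = 48), MRPS (red, n = 29), cytosolic ribosomal protein genes (green, n = 76) and tested genes of like mean count (gray, n = 8609). The curves of both mitochondrial sets rise near 0, with medians of -0.08 and -0.11 (0.04 and -0.01 once corrected for GC and length), and the cytosolic curve lies to the left with a median of -0.45 (-0.28 once corrected). Genes of like mean count had a median of -0.06 (-0.02 once corrected).

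The members have short transcripts, with a median canonical length of 1260 bases against 2983 for the genes of the table, and a median GC content of 48.0% against 49.0%. The correction for both raised most values, and with it the direction of the subunit medians split. The transcript of MRPS27 (2770 bases) is longer than the median member, and its log2 fold change with the correction was -0.50.

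**Figure D5:**
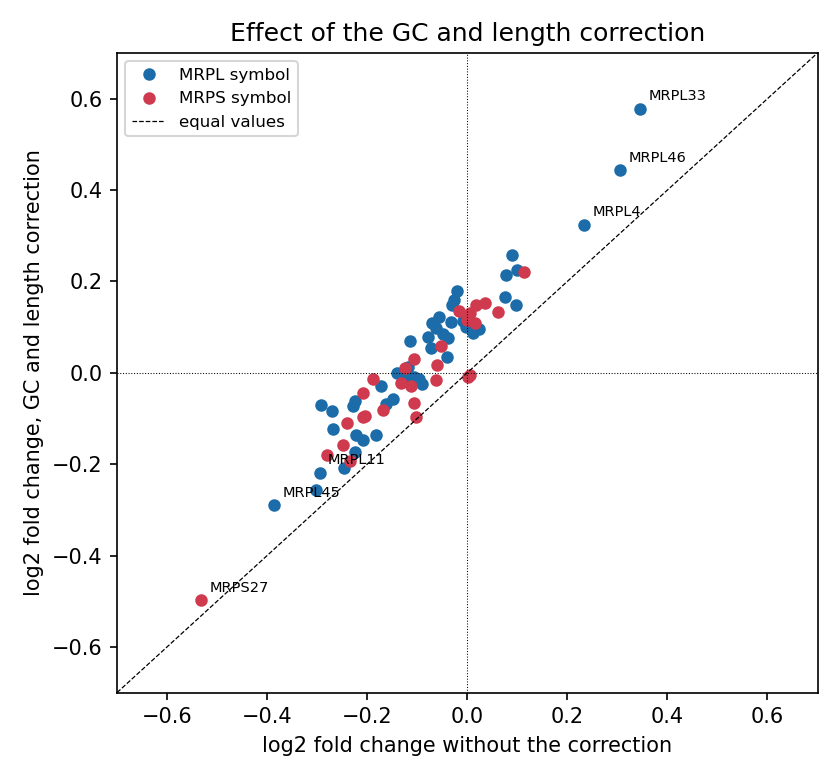
Log2 fold change of each member without (horizontal) and with (vertical) the correction for GC content and transcript length, MRPL in blue and MRPS in red, with a dashed line where both are equal. Most points lie above the line, MRPL46, MRPL33 and MRPL4 are the 3 called higher after correction, and MRPS27 stays lowest at -0.50.

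Among genes of the cell cycle, all 30 proliferation genes listed had log2 fold changes below 0. In 0 of the 30 was every BRG1 sample below every Control sample. Of 30 proliferation genes 0 were called by DESeq2 or edgeR without the block (0 at an unadjusted DESeq2 p under 0.05), and 17 were lower with the block by DESeq2 and 6 by edgeR. Their median log2 ratio was -0.71, -0.41 and -0.11 at numbers 1 to 3. The medians at those numbers were -0.07, -0.17 and -0.04 for MRPL and -0.06, -0.13 and -0.08 for MRPS. The part of proliferation in the members' values was not tested.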

How the data were processed

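RNA was sequenced from 3 Control and 3 BRG1 samples of COV434 (500 ng of RNA, read pairs of 78 bases). The authors aligned reads with STAR (2.5.3a), quantified transcripts with salmon (0.8.2) against GENCODE on hg38 and passed the result through tximport. Each deposited value is an estimated count of a gene symbol, which the authors obtained by scaling TPM to transcript length and library size (lengthScaledTPM). Reads that fit several genes are divided by salmon's model, so genes with pseudogenes or overlapping exons are uncertain. Of the members, 29 share over 10% of their exonic bases with other genes and 36 have a named pseudogene (GENCODE 44, not the release the authors used).

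Estimated counts were rounded. The main test was DESeq2 (1.42.0, Wald test, median-ratio size factors, no covariate), after the study's methods. It ran on the 18096 of 19899 genes with a count in any sample. Of these, 15991 were given an adjusted p, and genes under 0.05 were called. Fits were tested on simulated data, where the share of false calls of DESeq2 exceeded its threshold, so counts by edgeR (4.0.16) stand beside. The limma (3.58.1) voom test was another alternative. Normalised counts are counts over size factors. Ratios within replicate numbers used a pseudocount of 0.5. The totals of 29699741 to 63613710 estimated counts set the counting error, and members had at least 423.6 normalised counts in every sample.

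Same-numbered samples deviated together (correlations of deviations from group means 0.56, 0.60 and 0.64 over 12433 genes), so the numbers pair the samples and blocked values are given where they change a call.

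Members and gene lists were chosen with earlier results of these data known. Named members were those called with or without the block, then further members in order of p up to 20, and MRPS18A, MRPS18B, MRPS18C, MRPS30 and MRPS36.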

Additional observations from a re-analysis of the deposited data

How the results depend on the processing

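The count of 1 member called lower became 3 with the replicate block, 3 by edgeR with the replicate block, 2 with TMM factors, 2 with a filter of 10 counts in 3 samples and 2 with the replicate block on counts corrected for GC and length, and it ran from 0 to 2 when 1 replicate or number was left out, with 0 without Control replicate 1. For MRPL the count of 0 became 2, 2, 1, 1 and 1 under the same settings in that order, and 0 to 1 with a replicate left out. For MRPS the count of 1 became 0 without Control replicate 1. The count of 0 members called higher, all of them MRPL, became 3 in both fits corrected for GC and length (without and with the block) and 0 to 1 with a replicate left out, the 1 being MRPL33 without number 3 in the fit with the block. The MRPL median of -0.08 turned to 0.0435 when corrected for GC and length and 0.0448 with the block added, and the MRPS median of -0.11 moved to -0.0587 with total-count factors, a setting added after seeing the data, and to -0.0131 in both corrected fits. The median of all tested genes was -0.01 in the main fit and 0.02 in both corrected fits. Leaving out replicates gave medians of -0.1255 to -0.06475 for MRPL and -0.1113 to -0.07487 for MRPS. Leaving out the members with overlapping exons, also added after seeing the data, gave medians of -0.10 for MRPL and -0.11 for MRPS.

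The sign of MRPS18C (-0.0014) turned to 0.000556 by limma-voom, 0.0454 with total-count factors, 0.0020 with the count filter, 0.115 when corrected for GC and length and 0.114 with the block added, and ran from -0.144 to 0.122 with 1 sample left out, with 0.123 without number 3 in the blocked fit. MRPS36 turned to 0.0292 in the corrected fit and 0.0307 with the block added. The cause of these changes was not tested. The block changed no call of a named member other than MRPL45, MRPL11 and, by edgeR, MRPL41. With 3 samples a group, the standard error of a member's log2 fold change was 0.11 to 0.22, which limits what could be called.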
